A study of Homo sapiens with 10 samples.

Results

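The 100 most abundant longer transcripts of HEK293T cells, a transformed human embryonic kidney line, are described across cells that received different gene activators. They were chosen by abundance alone. Rows of the deposited tables (each row groups the transcripts of 1 gene locus) with a mean transcript length from 700 to under 9000 nt were ranked by mean TPM over the 10 libraries, and the first 100 were taken. TPM, transcripts per 1000000, is the authors' abundance of a row per unit of length, scaled to the same sum in every library. The ranking covered 23633 of the 31848 rows and left out 19 rows by their transcript identifiers, 5 of which would otherwise have stood among the members. The working label calls the members nuclear, that is, not of mitochondrial origin. The files give no chromosome and no gene name for a row, so neither this nor the identity of the cell line could be checked from markers. None of the 100 members had an identifier in the name tables at hand. Members are therefore called by their rank, with their length.

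Each library came from cells transfected with a guide RNA directed at the fetal globin gene HBG1. In 8 libraries the cells also received 1 of 4 activators built on dead Cas9, which binds DNA at the guide's target without cutting it. VP64 carries a small viral activation domain, VPR joins VP64 to the p65 and Rta domains, SAM adds domains that bind hairpins of the guide, and Suntag gathers VP64 copies on an array of peptides. The control was labelled guide only. Each of the 5 groups had 2 libraries. The labels name no separate cultures, so any p-value rests on the scatter of these libraries alone, and that scatter may be technical. None of the labels names cells with dead Cas9 that lacks an activator, and the guide's sequence is not given.

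In growing human cell lines the most abundant messenger RNAs mostly encode proteins that every cell needs in bulk, such as ribosomal proteins, translation factors, cytoskeletal proteins, glycolytic enzymes and chaperones. Their levels are commonly used as a steady background for other genes. Because sequencing reads a fixed number of molecules, a shift in such transcripts also changes the share left for every other gene. In a pool of cells, fewer cells with a transcript and less of it per cell cannot be told apart.

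The members spanned a 19.7-fold range of abundance, with a mean TPM of 16780 at rank 1, a median of 1729 and 851.6 at rank 100. Those at or above 5000 TPM numbered 12, and 21 were under 1000 TPM. The threshold cut a smooth slope. Rank 99 had 856.7 TPM and rank 100 had 851.6 TPM, and the rows next below had 849.8 and 842.9 TPM. The length limits also passed through abundant rows, since 43 rows under 700 nt lay at or above the lowest member, the highest of them at 5830 TPM. Within the ranked rows, members were short. Their median length was 1367 nt, from 705 to 3985 nt, and the 12916 ranked rows with at least 1 TPM had a median of 2747 nt. By length, 56 members had 700 to under 1500 nt, 40 had 1500 to under 3000 nt and 4 had more. The rows hold 384 transcripts in all, up to 11 in a row, and 16 members have a single one.

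Depth was high for these rows. Library totals ran from 3316534 to 7447949 expected counts, which are RSEM's estimates and need not be whole. The lowest count of any member in any library was 1046, the median 5774 and the highest 100029. No member had whole counts in all 10 libraries (within 0.01), and 61 had them in no library, so some of their reads were divided with other rows. How many reads of a member were divided is not in the files. All 100 members passed the filter on low counts.

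The most abundant member, of 943 nt, ranked first in each of the 10 libraries. Its TPM was 17717 and 18569 with VP64, 18860 and 17502 with VPR, 14633 and 14574 with SAM, 15658 and 18462 with Suntag, and 15988 and 15855 in the control. Both SAM libraries lay below the other 8. The 2 Suntag libraries stood apart from each other, one level with the control and the other with VP64 and VPR. The member of rank 2, of 1383 nt, had 8925 and 8854 TPM with VP64, 8660 and 8891 with VPR, 6507 and 6790 with SAM, 8044 and 9029 with Suntag, and 8753 and 7441 in the control. Here too SAM was lowest, and the control libraries differed by more than those of SAM. Rank 3, of 956 nt, stayed within 7710 to 8766 TPM over all 10 libraries, with SAM again lowest.

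The member of rank 4, of 1109 nt, had 7371 and 7463 TPM with SAM, its lowest libraries, and its highest value was 9142 in Suntag replicate 2. Rank 6, the longest of the first 10 at 3500 nt, had 7178 and 7279 TPM with VP64, 7490 and 7691 with VPR, 7280 and 7000 with SAM, 7440 and 5449 with Suntag, and 6182 and 5940 in the control. The control lay below every activator library except Suntag replicate 2. Rank 9, of 876 nt, had 5840 and 6117 TPM with VP64, 6582 and 6208 with VPR, 5257 and 5310 with SAM, 5847 and 5693 with Suntag, and 5201 and 5087 in the control. All 8 activator libraries were above both control libraries in TPM, SAM only narrowly. Ranks 5, 7, 8 and 10 had means of 7541, 6819, 6245 and 5636 TPM. Among the first 10, rank 8, of 1031 nt, was the one whose control libraries, at 6994 and 6466 TPM, included the highest value.

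**Figure D1:**
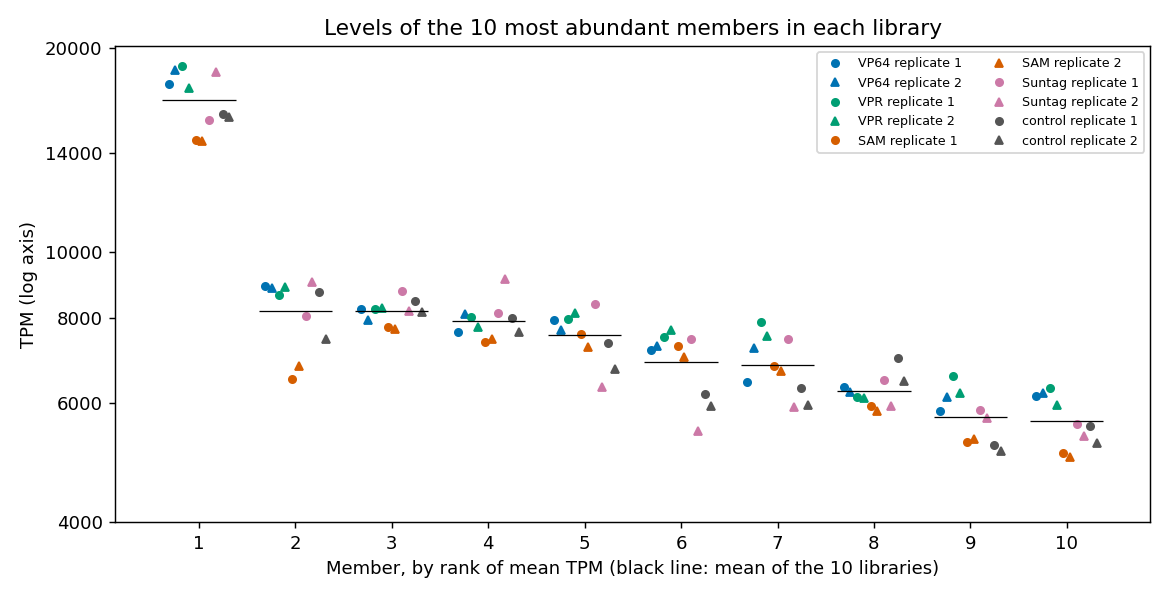
TPM of the 10 most abundant members (horizontal axis, by rank; vertical axis, TPM on a log scale) in each of the 10 libraries, coloured by group, with a circle for replicate 1, a triangle for replicate 2 and a black line for the mean of 10 libraries. Rank 1 stands apart at 16780 TPM, and its SAM libraries, at 14633 and 14574 TPM, are the lowest.

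Together the members held from 24.3% to 27.0% of a library's TPM. Their summed share of TPM was 26.3 ± 0.17% with VP64, 26.9 ± 0.20% with VPR, 24.29 ± 0.006% with SAM, 25.8 ± 0.69% with Suntag, and 24.9 ± 0.48% in the control (SD, n = 2 each). VPR was highest in both libraries, at 27.0% and 26.7%, and SAM lowest in both, at 24.3% each. The control libraries had 25.3% and 24.6%. The share of the first 10 members followed the same order at its ends, with 8.51 ± 0.15% with VPR, 7.39 ± 0.04% in SAM and 7.67 ± 0.30% in the control (SD, n = 2 each). Members of 700 to under 1500 nt held 18.1 ± 0.31% with VPR, 16.0 ± 0.10% in SAM and 16.3 ± 0.22% in the control. Those of 1500 to under 3000 nt held 7.40 ± 0.11% with VPR, 7.06 ± 0.08% in SAM and 7.35 ± 0.26% in the control (SD, n = 2 each). The higher share in VPR was thus in the shorter members, while SAM was lowest of the groups in both length classes. As shares of expected counts, in which long transcripts weigh more, the members held from 15.3% in SAM replicate 1 to 18.2% in VPR replicate 1.

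**Figure D2:**
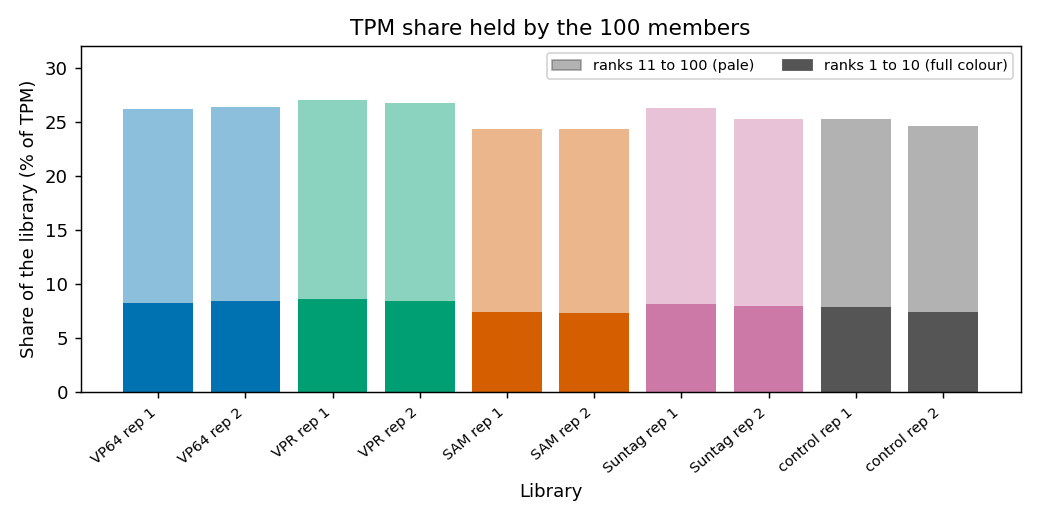
Share of a library's TPM (vertical axis, percent, from 0) held by the 100 members in each of the 10 libraries, with ranks 1 to 10 in full colour and ranks 11 to 100 pale. The bars run from 24.3% in both SAM libraries to 27.0% in VPR replicate 1.

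The set itself varied little between groups. Ranking by 1 group alone chose 96 of the 100 members with VP64, 95 with VPR, 97 with SAM, 96 with Suntag, and 96 in the control. Each group's own libraries helped choose the members, so part of this agreement is built in. When the groups were ranked separately, 88 rows stood in the top 100 of every group and 111 in that of any group. In all 10 libraries taken singly, 84 members ranked within the first 100. The lowest rank of any member in any library was 248.

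The coefficient of variation of a member's TPM over the 10 libraries had a median of 8.65%, and 68 members were under 10%. The steadiest, rank 71 at 2104 nt, had a coefficient of 1.46%. Its TPM was 1179 and 1186 with VP64, 1213 and 1226 with VPR, 1214 and 1181 with SAM, 1211 and 1226 with Suntag, and 1215 and 1213 in the control. The most variable, rank 45 at 2133 nt, had a coefficient of 19.99%, and its values are given with SAM. In 10 members the highest library exceeded the lowest at least 1.5-fold.

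Replicates agreed closely except in Suntag. After the median was removed, the log2 ratio of a member's counts between the 2 libraries of a group had a median size of 0.046 with VP64, 0.044 with VPR, 0.049 with SAM, 0.13 with Suntag, and 0.043 in the control. Counting error alone would give 0.016 to 0.021. Members whose replicates differed by over 1.25-fold numbered 17 with Suntag, 3 in the control, 1 in VPR and none in VP64 or SAM. The largest gap was at rank 87, of 1018 nt, with 957 TPM in Suntag replicate 1 and 453 in replicate 2, where its other 8 libraries lay between 896 and 1087. Rank 18, of 935 nt, had 5823 and 3443 TPM in the same libraries, the highest and the lowest of its 10 values. Rank 57, of 1011 nt, had 1800 and 898 TPM there. In the opposite direction, rank 66, of 1336 nt, had 1458 and 1952 TPM. Outside Suntag the widest gaps were in the control. Rank 67, of 1422 nt, had a replicate 1 to replicate 2 log2 ratio of -0.58, and rank 29, of 2204 nt, one of 0.55.

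Differences between groups were tested by edgeR's quasi-likelihood F test, with a single model for all tested rows and all 10 libraries, and "called" means a Benjamini-Hochberg adjusted p under 0.05 over the 13241 rows tested. The spread is shared by all groups, so the wide Suntag pair enters every test. Levels in these tests are normalized CPM, counts per 1000000 after TMM scaling. TPM printed beside a log2 change is scaled otherwise, so the ratio of the TPM values can differ from that change. The 4 comparisons with the control use the same 2 control libraries. No member changed 2-fold. The largest log2 changes were 0.57 with VP64, 0.76 with VPR, 0.57 with SAM and 0.56 with Suntag, each against the control. A member's change had a median standard error of about 0.08. In SAM against the control, all tested rows of 700 to under 1500 nt had a median of 0.17. Smaller changes can thus pass the test among the members than among most rows, which the shares of all tested rows do not allow for.

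VPR showed the most changes against the control, nearly all of them rises. Of the 100 members, 43 rose and 1 fell. Of all tested rows, 4.58% rose and 2.02% fell, 6.6% together, and of the next 900 rows by rank, 23.4%. A change of at least 1.5-fold, called or not, was found in 6 members, 39 of the next 900 rows and 970 of all 13241. The members' median log2 change was 0.29 (quartiles 0.11 and 0.40), against -0.02 over all tested rows, and 89 of 100 were positive. Calls were commonest at ranks 1 to 25, with 17 of 25 members called. There were 10 at ranks 26 to 50, 11 at ranks 51 to 75 and 6 at ranks 76 to 100. The median lengths were 1206, 1351, 1145 and 1808 nt, in the same order. The largest rise was at rank 19, of 741 nt, with 4869 and 4632 TPM with VPR, against 3295 and 3210 TPM in the control. In normalized CPM the gap was wider, with 1674 and 1533 in VPR, against 965 and 924 in the control. Its log2 change was 0.76 ± 0.08 (SE, edgeR adjusted p = 0.000327), and it was called under every alternative tried, most narrowly with the length trend removed, where the change was 0.35 (0.0485). Rank 75, of 815 nt, had 1211 and 1167 TPM with VPR, against 909 and 868 TPM in the control, which put it 0.63 ± 0.08 higher on the log2 scale (SE, edgeR adjusted p = 0.00126), until the length trend was removed (0.25, adjusted p = 0.166). Rank 9 rose by 0.52 and rank 6 by 0.51 on the log2 scale (edgeR adjusted p = 0.00136 and 0.0134). The call for rank 9 ended with the length trend removed, where its change was 0.16 (0.231). The call for rank 6 ended without VPR replicate 1 (0.0954) or either control library (0.0581 and 0.117). VPR also had 38 members above all other 8 libraries in both of its own, and none below, where 4.13% and 3.55% of all tested rows had these patterns. The count of 44 called members fell to 16 without VPR replicate 1, to 28 without control replicate 1 and to 18 without control replicate 2.

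The rises in VPR went with transcript length. All 56 members of 700 to under 1500 nt had a positive log2 change, with a median of 0.37, and 31 were called higher. Among the 40 of 1500 to under 3000 nt the median was 0.15, with 11 called higher and 1 lower. The 4 longest had a median of -0.01, with 1 called higher. All tested rows of the same 3 length classes had medians of 0.27, 0.06 and -0.12. Of these rows 18.4%, 3.85% and 3.97% were called in either direction. Across the members the log2 change correlated with log2 length at r = -0.58 (rho = -0.60, n = 100), and across all tested rows at r = -0.34 (rho = -0.51, n = 13241). The trend was not particular to VPR. Against the same control libraries the members' r was -0.45 with VP64, -0.37 with SAM and -0.42 with Suntag (n = 100 each). Members share the libraries, so these are descriptions. With each library's trend on length removed, 7 members were called, 6 higher and 1 lower, as were 82 of the 13241 tested rows in either direction. The members' median log2 change was then 0.05. The mean fragment length implied by the files, transcript length less effective length, was 112 ± 1.46 nt in VPR and 131 ± 2.51 nt in the control (SD, n = 2 each). In the other activators it was 113 ± 13.9 nt in VP64, 107 ± 13.1 nt in SAM and 93.2 ± 4.82 nt in Suntag (SD, n = 2 each). Its part in the results was not tested.

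**Figure D3:**
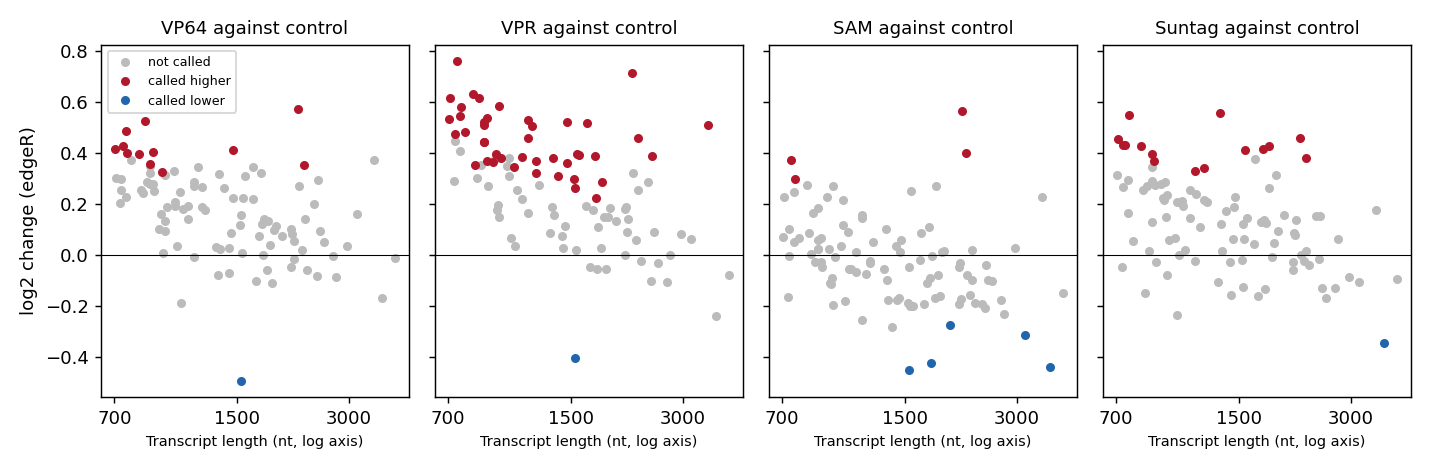
Log2 change of each member against the control (vertical axis, edgeR) by transcript length (horizontal axis, nt, log scale) in the 4 activators. Red points were called higher, blue lower and grey ones not called. In VPR all 56 members under 1500 nt lie above 0, and in each panel shorter members tend to lie higher than longer ones.

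VP64 and Suntag showed fewer calls, with all libraries again mostly rises. In VP64, 12 members rose and 1 fell, where 0.665% of all tested rows rose, 0.151% fell and 0.816% were called. Among the next 900 rows by rank, 3.56% were called. No member changed at least 1.5-fold, where 8 of the next 900 rows and 831 of all tested rows did, called or not. The median log2 change of members was 0.19 (all tested rows, -0.00), and 84 of 100 were positive. After rank 23, described below, the largest rises were at ranks 51 and 55. Rank 51, of 849 nt, had 1922 and 1878 TPM with VP64, against 1418 and 1491 TPM in the control, which put it 0.53 ± 0.10 higher on the log2 scale (SE, edgeR adjusted p = 0.0293). Rank 55, of 752 nt, had 1812 and 1626 TPM with VP64, against 1308 and 1349 TPM in the control (log2 change 0.49 ± 0.09, SE, edgeR adjusted p = 0.0292). Both calls ended without any single VP64 or control library, at adjusted p from 0.149 to 0.316. With the length trend removed both ended too, rank 51 at a change of 0.30 (0.132) and rank 55 at 0.23 (0.221), and rank 51 also ended with an effective length offset (0.0579). Rank 1 was called as well, at 0.33 ± 0.07 (SE, edgeR adjusted p = 0.0463), a call that ended under 10 alternatives, among them leaving out any VP64, SAM or control library and removing the length trend (0.13, adjusted p = 0.51). Of the 13 called members 10 had under 1500 nt, a class that holds 56 of the 100 members. Of all tested rows 2.47% were called at 700 to under 1500 nt. At 1500 to under 3000 nt it was 0.361%, and at 3000 to under 9000 nt 0.368%. No call stood by edgeR without VP64 replicate 1, VP64 replicate 2 or control replicate 2, where 37, 33 and 31 members had an unadjusted p under 0.05. There were 3 calls without control replicate 1, 35 without Suntag replicate 1 and 34 without Suntag replicate 2, and DESeq2 called 26 with all libraries.

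In Suntag, 15 members rose and 1 fell, where 0.989% of all tested rows rose, 0.34% fell and 1.33% were called. Among the next 900 rows by rank, 4.89% were called. The members' median log2 change was 0.14 (all tested rows, 0.00), and 72 of 100 were positive. Rank 36, of 756 nt, had 2444 and 2604 TPM with Suntag, against 1903 and 1896 TPM in the control. Its log2 change was 0.55 ± 0.07 (SE, edgeR adjusted p = 0.00463), and the call ended without control replicate 2 (0.0607) and with the length trend removed, at a change of 0.31 (0.11). Rank 66 rose by 0.56 ± 0.10 (SE, edgeR adjusted p = 0.0168), the member whose Suntag libraries had 1458 and 1952 TPM, against 1240 and 1210 TPM in the control. That call ended without control replicate 1 (0.0743) or 2 (0.149), in a fit of the groups compared alone (0.114) and with the length trend removed (0.0923). The Suntag pair was the widest, and the count of 16 became 1 in a fit of Suntag and control alone. Without Suntag replicate 1 there were 30 calls, 21 higher and 9 lower, and the members' median log2 change was 0.05. Without Suntag replicate 2 there were also 30, of which 29 were higher and 1 lower, with a median of 0.17. The count was 10 without either VP64 library, 2 without control replicate 1 and 0 by edgeR without control replicate 2, where 35 members had an unadjusted p under 0.05. DESeq2 called 25. With the length trend removed, 2 members were called in VP64 and 1 in Suntag, where 19 and 16 of all tested rows were. The members' medians were then 0.06 and 0.01.

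In SAM, changes among the members were few and went in both directions. Of the 100, 4 rose and 5 fell against the control, where 2.27% of all tested rows rose, 2.94% fell and 5.2% were called. The 9% of members called lay near the 10% of the next 900 rows by rank, of which 24 were higher and 66 lower. The median log2 change of members was -0.03 (all tested rows, 0.01), and 43 of 100 were positive. This median was 0.01 without SAM replicate 1, -0.08 without SAM replicate 2, -0.02 without control replicate 1, -0.05 without control replicate 2 and -0.13 with the length trend removed, so its sign rested on 1 library. By scaling, the split was 5 higher and 5 lower with RLE factors, 7 and 4 with library totals alone, and 2 and 19 with the length trend removed. Rank 25, of 1764 nt, had 2409 and 2429 TPM with SAM, against 3220 and 3233 TPM in the control. It fell by 0.42 ± 0.07 on the log2 scale (SE, edgeR adjusted p = 0.00342), a call that ended without SAM replicate 1 (0.0548). No call stood by edgeR without SAM replicate 1, where 21 members had an unadjusted p under 0.05. There were 2 without SAM replicate 2, 4 without control replicate 1, 6 without control replicate 2 and 21 without either Suntag library, and DESeq2 called 17 with all libraries.

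A few members are described singly, and 4 of them are identified by their row numbers. Row 173, of rank 23 and 2187 nt, was called higher in each of the 4 activators. It was 1 of 3 members called in all 4 comparisons with the control. How many of all tested rows were called in all 4 was not counted. Row 173 was described for its size of change. It had 3193 and 3295 TPM with VP64, 3323 and 3524 with VPR, 3206 and 3096 with SAM, 3079 and 3074 with Suntag, and 2538 and 2202 in the control. All 8 activator libraries lay above both control libraries. In normalized CPM both VPR libraries were above the other 8. The log2 change was 0.57 ± 0.08 with VP64, 0.72 ± 0.08 with VPR, 0.40 ± 0.08 in SAM and 0.46 ± 0.08 in Suntag (SE; edgeR adjusted p = 0.00878, 0.000327, 0.0088 and 0.0151). At over 2000 nt it was longer than most members that rose, and with the length trend removed all 4 calls stood. The call in VPR held under every alternative tried (adjusted p up to 0.0083). Without control replicate 2 the other calls ended, at adjusted p = 0.118 with VP64, 0.0928 in SAM and 0.149 in Suntag. That in Suntag also ended in a fit of the 2 groups alone (0.132). VP64 lost its call without its replicate 1 (0.111) or 2 (0.172), and SAM lost its own without SAM replicate 1 (0.0675) or 2 (0.0714).

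Row 5743, of rank 45 and 2133 nt, was high in SAM. It had 2741 and 2656 TPM with SAM, against 1672 and 1667 with VP64, 1714 and 1869 with VPR, 2052 and 1809 with Suntag, and 1960 and 1714 in the control. Both SAM libraries were above the other 8, and the other groups overlapped or nearly so. It was the only member with this pattern, where 8.41% of all tested rows had it. SAM exceeded the control by 0.57 ± 0.10, VP64 by 0.58 ± 0.10 and Suntag by 0.43 ± 0.10 on the log2 scale, and VPR against SAM was -0.43 ± 0.10 (SE; edgeR adjusted p = 0.00608, 0.00841, 0.0432 and 0.0246). Against the control the call ended without SAM replicate 1 (0.0577), SAM replicate 2 (0.0577) or control replicate 2 (0.0722), with log2 changes of 0.57, 0.56 and 0.45. Against VP64, VPR and Suntag the calls ended without SAM replicate 1, at edgeR adjusted p = 0.083, 0.151 and 0.222, and without SAM replicate 2, at 0.0593, 0.107 and 0.165. Leaving out VP64 replicate 1 or 2 ended the call against VP64 (0.113 and 0.0651), and VPR replicate 1 or 2 that against VPR (0.188 and 0.0615). Against Suntag the difference was 0.26 without Suntag replicate 2 (0.146), and the call also ended without any single VP64 or VPR library (0.0549 to 0.0734), in a fit of the 2 groups alone (0.119) and with an effective length offset (0.0531).

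Row 2625, of rank 91 and 1533 nt, was the member that fell with VP64, VPR and SAM. It had 732 and 759 TPM with VP64, 674 and 849 with VPR, 884 and 803 with SAM, 910 and 1075 with Suntag, and 1175 and 1135 in the control. All 8 activator libraries were below both control libraries, Suntag replicate 2 by the least. The log2 change was -0.50 ± 0.09 with VP64, -0.41 ± 0.09 in VPR and -0.45 ± 0.09 in SAM (SE; edgeR adjusted p = 0.0247, 0.0147 and 0.0126). In Suntag it was -0.12 ± 0.09, which did not pass (edgeR adjusted p = 0.546). Without control replicate 1 all 3 calls ended, at 0.138, 0.107 and 0.0929. Without control replicate 2 those in VP64 and VPR ended, at 0.153 and 0.0694. VP64 further lost its call without its replicate 1 (0.268) or 2 (0.19). The call in VPR ended without VPR replicate 1 (0.204), where the change was -0.27, and that in SAM ended without SAM replicate 1 (0.0767) or 2 (0.114).

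Row 26764, of rank 96 and 3676 nt, is 1 of the 4 longest members. It had 889 and 862 TPM with VP64, 786 and 802 with VPR, 772 and 812 with SAM, 790 and 801 with Suntag, and 1010 and 1120 in the control. All activator libraries were below both control libraries. The log2 change was -0.44 ± 0.07 in SAM and -0.35 ± 0.07 in Suntag (SE; edgeR adjusted p = 0.00452 and 0.0311). In VPR it was -0.24 ± 0.07 and in VP64 -0.17 ± 0.07, neither of which passed (edgeR adjusted p = 0.0547 and 0.292). The SAM call ended without SAM replicate 1 (0.0675). The Suntag call ended without either control library (0.0719 and 0.218) or either VP64 library (0.0636 and 0.0629), in a fit of the 2 groups alone (0.189), with an effective length offset (0.0557) and with the length trend removed (0.081).

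**Figure D4:**
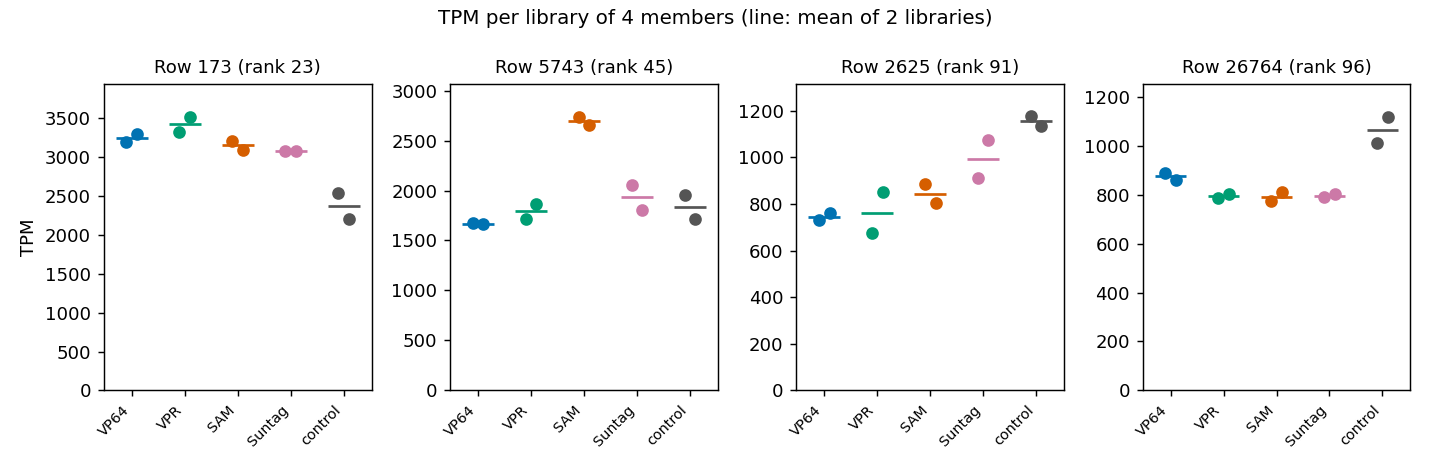
TPM (vertical axes, from 0) of 4 members in each library, by group, with a line at the mean of 2 libraries. Row 173 is lowest in the control, row 5743 is highest in SAM at 2741 and 2656 TPM, and rows 2625 and 26764 are highest in the control.

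Over the 100 members, 17 had all 8 activator libraries above both control libraries in normalized CPM and 3 had all 8 below. Of all tested rows 5.7% and 4.98% had these patterns. The 17 ran from rank 19 to rank 94, and none was among the first 10. The 3 below were ranks 78, 91 and 96. Taken singly, both Suntag libraries lay above the other 8 for 7 members and below them for none, where 3.28% and 2.42% of all tested rows had these patterns. Both VP64 libraries did so for 1 member (rank 20) and 2 members, where 3.4% and 3.22% of all tested rows did.

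Between activators, SAM was compared with VP64, VPR and Suntag, and in all 3 comparisons every called member but row 5743 was lower in SAM when all libraries were used. Against VP64, 21 members were lower in SAM and 1 higher, where 2.77% of all tested rows were lower, 1.52% higher and 4.29% called in all, as were 9.56% of the next 900 by rank. The median log2 difference was -0.19 (all tested rows, -0.00). Among ranks 1 to 25, 12 members were called lower and none had a positive difference. The largest fall was at rank 2, with 6507 and 6790 TPM with SAM, against 8925 and 8854 TPM in VP64 (log2 difference -0.54 ± 0.08, SE, edgeR adjusted p = 0.00362), which did not pass without VP64 replicate 1 (0.0636) or SAM replicate 1 (0.0587). Rank 21, of 1579 nt, had 2837 and 2881 TPM with SAM, against 3686 and 3780 TPM in VP64 (-0.51 ± 0.09, SE, edgeR adjusted p = 0.00841), which did not pass without any single SAM or VP64 library (0.0541 to 0.098). Rank 20, of 3158 nt, had 3488 and 3455 TPM with SAM, against 4476 and 4330 TPM in VP64. Its difference of -0.47 ± 0.06 (SE, edgeR adjusted p = 0.00151) was under the 1.5-fold minimum. Under every other alternative tried it was called, with log2 differences from -0.50 to -0.38. The count was 1 without SAM replicate 1, 4 without SAM replicate 2, 1 and 3 without VP64 replicates 1 and 2, and 46 and 48 without Suntag replicates 1 and 2.

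Of the 7 comparisons tested, VPR against SAM had the most called members. In VPR 48 members were higher and 1, row 5743, was lower than with SAM, where 3.56% of all tested rows were higher, 2.11% lower and 5.68% called in all, as were 17.3% of the next 900 by rank. The median log2 difference was 0.30 (all tested rows, -0.00), and 99 of 100 were positive. Of ranks 1 to 25, 21 were called higher. Rank 2 had 8660 and 8891 TPM with VPR, against 6507 and 6790 TPM in SAM (log2 difference 0.59 ± 0.08, SE, edgeR adjusted p = 0.00218). Rank 22, of 1180 nt, had 3638 and 3436 TPM with VPR, against 2714 and 2691 TPM in SAM (0.58 ± 0.08, SE, edgeR adjusted p = 0.00269). Rank 1 differed by 0.51 (edgeR adjusted p = 0.00271), and by 0.32 with the length trend removed (0.0238). With library totals alone the median of all tested rows was -0.11, the members' median was 0.20, and 31 were called. With the length trend removed 24 were called, 23 higher, and the members' median was 0.17. No call stood by edgeR without SAM replicate 1, where 60 members had an unadjusted p under 0.05. The count was 4 and 32 without VPR replicates 1 and 2, 24 without SAM replicate 2, and 77 and 76 without Suntag replicates 1 and 2. DESeq2 called 58.

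Against Suntag, 13 members were lower in SAM and 1 higher, where 1% of all tested rows were lower, 0.717% higher and 1.72% called in all. Among the next 900 rows by rank, 6.89% were called. The members' median log2 difference was -0.17 (all tested rows, -0.01). Rank 38, of 732 nt, had 2007 and 1991 TPM with SAM, against 2633 and 2378 TPM in Suntag (log2 difference -0.44 ± 0.08, SE, edgeR adjusted p = 0.0207), which did not pass without either SAM library (0.192 and 0.0869) or in a fit of the 2 groups alone (0.0985). Rank 66 differed by -0.46 ± 0.10 (SE, edgeR adjusted p = 0.0321), and by -0.27 without Suntag replicate 2 (0.109). That call also ended without any single SAM or VP64 library (0.0637 to 0.256), in a fit of the 2 groups alone (0.121) and with library totals alone (0.0556). By edgeR no member was called without SAM replicate 1 or in a fit of SAM and Suntag alone, where 30 and 35 had an unadjusted p under 0.05. There was 1 call without SAM replicate 2, and there were 3 without either VP64 library. Without Suntag replicate 1 there were 31, of which 11 were higher in SAM and 20 lower, and the members' median was -0.09.

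Across the members the correlation of log2 difference and log2 length was r = 0.08 (rho = 0.09) for SAM against VP64 and r = 0.08 (rho = 0.06) for SAM against Suntag, and r = -0.38 (rho = -0.40) for VPR against SAM (n = 100 members each). Against the control it was r = -0.37 (rho = -0.44) for SAM. Against VP64 the median log2 difference was -0.20 for members of 700 to under 1500 nt and -0.17 for those of 1500 to under 3000 nt. With the length trend removed 28 members were called in that comparison, and 12 in SAM against Suntag, where 729 and 216 of all tested rows were. Both SAM libraries lay below all other 8 for 24 members, where 8.44% of all tested rows had this pattern. Among these 24 were ranks 1, 2, 3, 8 and 10, and their lengths ran from 943 to 3985 nt.

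**Figure D5:**
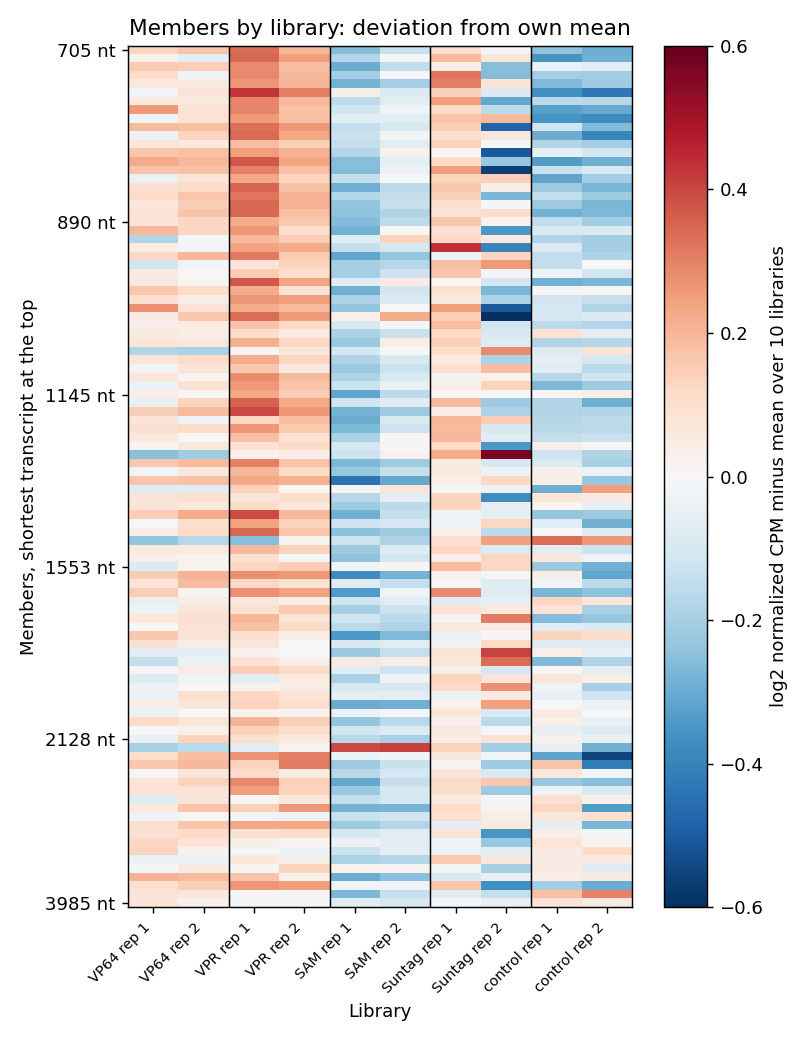
Log2 normalized CPM of each member minus its own mean over the 10 libraries (colour, from -0.6 to 0.6), with members as rows from 705 nt at the top to 3985 nt at the bottom and libraries as columns. VPR is red and the control blue in the upper, shorter rows, SAM is pale blue over most rows except row 5743, and Suntag replicate 2 is patchy.

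The lengths listed for a row are means over its transcripts, weighted by their abundance, and so move with the mix of transcripts. Of the 84 members with several transcripts, 24 had a length that ranged by over 1% between libraries and 2 by over 10%. Rank 57 was listed at 1192 nt in Suntag replicate 2 and between 965 and 1020 nt in the other 9 libraries. Rank 5 was listed at 678 nt in Suntag replicate 2 and between 737 and 828 nt elsewhere, namely 810 and 828 nt with VP64, 826 and 805 nt with VPR, 759 and 770 nt with SAM, 737 nt in Suntag replicate 1, and 778 and 783 nt in the control. Both members also had their lowest TPM in Suntag replicate 2, at 898 and 6328 TPM.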

How the data were processed

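The cells were transfected by lipid, per the labels' protocols, and random hexamers primed poly(A) RNA for libraries cut by tagmentation, which keeps no record of strand, so overlapping genes cannot be told apart. Per the submitters' processing notes the authors used RSEM 1.2.1 with hg19; the aligner and annotation are not given in the sources used here. The columns of the deposited tables are, by their headers, the expected count, TPM, FPKM, length and effective length per row. TPM and FPKM were made by the authors within each library.

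The members, groupings and tests were chosen with earlier results of these data known. Of the identifiers, 6 stems were found in the name tables, none of them of a member, and gene lists and sequences were therefore not used. Named members are ranks 1 to 10, the rows beside the threshold, the steadiest and most variable member, and up to 3 called members per direction and comparison whose groups do not overlap. Others named were chosen after their values were seen.

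The deposited expected counts, after rounding, were fitted with edgeR 4.0.16 (R 4.3.3; filterByExpr, TMM, quasi-likelihood F test, 1 coefficient per group, 5 residual degrees of freedom). P-values were adjusted over 13241 rows in each of 7 comparisons. VPR and Suntag against VP64, and VPR against Suntag, were not tested here. SE is the log2 change divided by the square root of F. The fit was tested on simulated data. Alternatives were RLE factors, library totals, DESeq2 1.42.0, no filter, the compared groups alone, a replicate block, an effective length offset, taking out a loess trend on length per library, a minimum of 1.5-fold and each library left out.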

Additional observations from a re-analysis of the deposited data

Results flagged for a closer look

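A difference between activators drew attention to 8 members for which SAM was called apart from VP64, VPR and Suntag alike by edgeR. Of all 13241 tested rows, 0.272% were higher and 0.446% lower in SAM in all 3, 0.717% together. The 3 comparisons use the same 2 SAM libraries, so calls in one are not independent of those in the others. Row 5743, of rank 45, was higher in SAM, and its least log2 difference from the other activators was 0.43. The other 7 were lower in SAM. By the activator nearest to SAM in each case, the log2 difference was -0.33 at rank 1, -0.45 at rank 2, -0.35 at rank 14, -0.30 at rank 15, -0.29 at rank 25, -0.30 at rank 38 and -0.33 at rank 54. Their largest adjusted p over the 3 comparisons ran from 0.0143 at rank 2 to 0.0481 at rank 38. SAM against the control was called for ranks 14, 25 and 45. For ranks 15, 38 and 54 SAM minus the control was -0.03, -0.00 and 0.02 in log2, and none of the 3 passed the test (adjusted p = 0.858, 0.985 and 0.918). Of the 10 fits that leave out 1 library, all 3 calls stood in 8 for rank 2 and in 1 for rank 15, with the others between, and in none did all 3 stand without SAM replicate 1.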

How the results depend on the processing

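The count of called members depended on the setting. Leaving out 1 library moved it between 0 and 35 for VP64, 16 and 63 for VPR, 0 and 21 for SAM, and 0 and 30 for Suntag, each against the control, and between 1 and 48 when SAM was set against VP64, 0 and 77 for VPR over SAM, and 0 and 31 when SAM was set against Suntag. With no filter on low counts it was 34 in VP64, 22 in SAM and 35 in Suntag against the control. Of the 19963 rows tested in that fit 533, 1280 and 590 were called. Between activators it was 49 for SAM against VP64 (48 lower in SAM) and 77 for VPR against SAM (76 higher in VPR). For SAM against Suntag it was 38 (36 lower in SAM). Over all rows of that fit these 3 comparisons had 1213, 1444 and 857 calls. In fits of the compared groups alone it was 43 in VP64, 18 in SAM and 1 in Suntag against the control, 52 for SAM against VP64 and 0 for SAM against Suntag. All rows tested in these fits had 617, 1154, 24, 1594 and 61 calls, in the same order. DESeq2 gave 26, 17 and 25 for VP64, SAM and Suntag against the control and 29 for SAM against Suntag. Over all rows it called 163, 331, 189 and 234. An effective length offset gave 6 in VP64 and 7 in Suntag, with 44 and 53 calls over all 13241 rows. Removing the length trend gave 2 in VP64, 7 in VPR, 21 in SAM and 1 in Suntag against the control, and 24 for VPR against SAM. Over all 13241 rows the calls were then 19, 82, 758, 16 and 417. Library totals alone gave 10 for SAM against VP64 (9 lower in SAM) and 31 for VPR against SAM (30 higher in VPR). For SAM against Suntag they gave 6 (5 lower in SAM). Of all tested rows they called 550, 916 and 219 in these 3 comparisons. At least 1.5-fold there were 6 in VPR against the control, 2 for VPR against SAM and 0 in the other 5. Of all tested rows 237 and 255 passed in the first 2, and from 41 to 295 in the others. The cause was not tested. Of 64 called member values, none reversed under any alternative and 3 stayed past the threshold on adjusted p under all. The 1.5-fold minimum was not part of that check.

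Over all tested rows, same-numbered libraries of different groups did not deviate together (r from -0.067 to 0.062). Counting noise is larger in rows of lower count, so a shared deviation could be missed there. The members alone were not checked in this way. Replicate numbers are used here only as names. With the replicate block the counts were 9 in VP64, 41 in VPR, 9 in SAM and 13 in Suntag against the control, and 19, 46 and 10 for the 3 comparisons of SAM with VP64, VPR and Suntag. By CPM the rule would choose 71 of the 100 members. In each group the members' median counting error (0.016 to 0.021) lay below their median replicate spread (0.043 to 0.13). For a typical member, 2 libraries per group thus limit precision more than depth does. The members with the fewest counts were not examined apart.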

Other observations

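The contrast between the 2 libraries of a group also varied with transcript length among the members. The log2 ratio of replicate 1 to replicate 2 correlated with log2 length at r = -0.11 with VP64, -0.43 with VPR, 0.41 with SAM, -0.29 with Suntag, and 0.22 in the control (n = 100 members each, which share both libraries, so these are descriptions). In VPR, shorter members were thus higher in replicate 1, and in SAM they were higher in replicate 2. Rows under 700 nt, outside the members, held 14.8% and 14.2% of TPM in the VPR libraries, 14.2% and 14.1% with VP64, 12.3% and 13.1% with SAM, 13.6% and 11.2% with Suntag, and 12.0% and 11.9% in the control.

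Of the rows of 9000 nt or more, also outside the members, the highest had a mean of 12765 TPM, a level that among the members was exceeded only by rank 1.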
